A study of Homo sapiens with 5 samples.

Results

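The genes described here are CYP1A1, CYP1B1, ALDH1A3, NQO1 and ARNT, 5 genes of the aryl hydrocarbon receptor pathway among 10576 genes measured in MDA-MB-231, a long-established line of human breast cancer cells of the triple-negative kind. They were chosen by name, from a list drawn up with earlier results of these libraries in view, and each gene is represented by its transcript row with the highest mean over the 5 libraries. The list was picked in part for the differences after OP449, so those differences are given as a description. The members account for 9 of the 16383 transcript rows of the table, and all 5 had reads in every library.

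The aryl hydrocarbon receptor is a ligand-activated transcription factor that waits in the cytosol bound to a chaperone complex. After binding planar aromatic compounds, certain drugs or tryptophan metabolites it enters the nucleus, pairs with ARNT and binds xenobiotic response elements, whose core letters are GCGTG. CYP1A1 and CYP1B1, cytochrome P450 enzymes that oxidise such ligands and many procarcinogens, are its classical target genes, and NQO1, a quinone reductase, is induced both by this receptor and by the stress factor NRF2. ALDH1A3, an aldehyde dehydrogenase that makes retinoic acid, is best known in breast cancer as a contributor to the aldehyde dehydrogenase activity used to mark stem-like cells. ARNT is shared with the hypoxia-inducible factors.

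The cells received OP449 at 1 µM for 12 hours, described in the series as an antagonist of SET, or PBS for 12 hours as its control. Others received an siRNA against SET (siSET), an siRNA against CIP2A (siCIP2A) or a control siRNA (siNT) for 48 hours. The sample label of siCIP2A names no time, and the 48 hours come from the shared treatment protocol. SET and CIP2A are endogenous inhibitors of the phosphatase PP2A, and the series' title also names the transcription factor MYC. All libraries came from 1 cell line without further genetic change named in the labels, and there was 1 library per group, so conditions could not be tested against each other and the differences below have no replicate check.

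Values are scaled counts per RefSeq transcript, that is, the authors' read counts on a common scale, and the reads behind them were worked back from it. Each read was worth 1.10 to 1.71 scaled counts, and the libraries held 3639530 reads (siSET) to 5599350 reads (siCIP2A) over the genes. Brackets give 95% exact counting intervals, which cover counting error only and compare libraries, not cultures. Log2 folds were taken after adding a pseudocount of 1 to each value. Genes past 2-fold in either direction were counted among those whose mean over both libraries reached a floor of 50 scaled counts. The rows of the table used here lie on chromosomes 1, 2 (in part) and 10 to 19, so AHR, its repressor AHRR, TIPARP, SET, CIP2A and MYC were not analysed here. Of the markers of the line, VIM, CD44 and AXL stood at 13820 to 20866 scaled counts in every library, and the progesterone receptor gene PGR had no read, which allows at most 3.31 to 5.13 scaled counts. CDH1, the gene of E-cadherin, stood at 12.9 in OP449 and 56.7 in PBS, and at 25.7 in siSET, 23.2 in siCIP2A and 27.3 in siNT. EPCAM, another epithelial gene, stood at 139 in siCIP2A and 282 in siNT, a log2 fold of -1.01. ZEB1, also held to be present, stood at 761 to 908 over the libraries. Of the other luminal or epithelial genes held to be low, ERBB2 stood at 1049 to 1179 and GATA3 at 133 to 250, both past the floor. FOXA1 had 1 read, in OP449. The part of these genes in the results was not tested. The siRNA targets themselves could not be checked.

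The promoter letters of 2 members are shown because their windows held the core letters of the receptor's element. Binding of the receptor there was not tested. RefSeq promoter windows on GRCh38.p14 were at hand for 4 of the 5 members (CYP1A1, ALDH1A3, NQO1 and ARNT). The 250 bases before the transcript start were searched for GCGTG on both strands, which reads CACGC where the match lies on the other strand. Capitals mark the matches, and each window is written 5′ to 3′ on the strand of its gene, chr15:74725529-74725778 on the minus strand for CYP1A1 and chr15:100879581-100879830 on the plus strand for ALDH1A3.
CYP1A1: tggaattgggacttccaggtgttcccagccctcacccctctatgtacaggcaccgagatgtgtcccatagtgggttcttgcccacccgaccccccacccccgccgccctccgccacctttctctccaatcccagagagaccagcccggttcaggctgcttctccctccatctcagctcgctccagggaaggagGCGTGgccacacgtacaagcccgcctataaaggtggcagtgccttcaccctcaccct
ALDH1A3: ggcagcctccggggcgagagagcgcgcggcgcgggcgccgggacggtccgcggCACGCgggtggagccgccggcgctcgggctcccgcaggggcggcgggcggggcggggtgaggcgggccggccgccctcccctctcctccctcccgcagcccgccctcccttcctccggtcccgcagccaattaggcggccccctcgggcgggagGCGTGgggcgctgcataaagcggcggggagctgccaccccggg

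The CYP1A1 window held 1 match, which began 57 bases before the start, and the ALDH1A3 window held 2, which began 197 and 43 bases before it. The windows of NQO1 and ARNT held none. Of 35116 promoter windows of this length, 32.2% held at least 1 match and 10.2% at least 2. In the 7576 windows of genes with a mean of at least 50 scaled counts, the shares were 44.5% and 15.0%. A match is thus common and says nothing on its own about the receptor. The letters farther from the start, where further elements of CYP1A1 are known to lie, were not searched.

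CYP1A1 was the member with the widest range. It stood at 451 scaled counts in OP449 against 19.3 in PBS, from 350 and 17 reads, and at 41.1 in siSET and 121 in siCIP2A against 58.1 in siNT, from 24, 110 and 49 reads. OP449 was thus far above all other libraries, siCIP2A was second and PBS was lowest. The ratio of OP449 to PBS was 23.4 [14.4 to 40.6], a log2 fold of 4.48, the highest of the 6093 genes past the floor. In such bulk libraries, more cells with the transcript and more of it per cell cannot be told apart. Against siNT, the other control, which differs in time and treatment, OP449 stood 7.76-fold higher, at a log2 ratio of 2.96 [2.52 to 3.42], so the size of the difference moved with the control library. In siCIP2A the gene was 2.09-fold above siNT [1.48 to 2.99], with a log2 fold of 1.05 just past the threshold and an interval that reaches well below it. In siSET it stood at -0.49 [-1.27 to 0.23] against siNT, from a pair whose mean of 49.6 scaled counts lay just under the floor. siNT itself was 3.01-fold above PBS [1.71 to 5.58], also under the floor. Of the neighbours in the order of levels, siNT and siSET had an interval of their ratio that held equality, whereas the intervals of OP449 over siCIP2A, siCIP2A over siNT and siSET over PBS did not.

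CYP1B1 was already abundant in the controls. It stood at 15459.5 scaled counts in OP449 against 4617 in PBS, from 12000 and 4073 reads, and at 5982 in siSET and 7347 in siCIP2A against 5398 in siNT. OP449 was the highest library and PBS the lowest, as for CYP1A1, but the range was narrower. The ratio of OP449 to PBS was 3.35 [3.23 to 3.47], a log2 fold of 1.74 that ranked 6th from the top. This smaller fold was a difference of 10843 scaled counts, against a difference of 432 for CYP1A1. On the scale of scaled counts per kilobase of transcript CYP1B1 stood at 2945 in OP449 and 879 in PBS, and CYP1A1 at 168 in OP449 and 7.18 in PBS. By that measure CYP1B1 ranked 96th of 10167 genes with a known transcript length in OP449 and 555th in PBS. Per kilobase it was the most abundant of the 5 in OP449, siSET and siCIP2A, whereas NQO1 was above it in PBS, at 1055 against 879, and in siNT, at 1120 against 1028. In siCIP2A it was 1.36-fold above siNT [1.31 to 1.41] and in siSET 1.11-fold above it [1.06 to 1.16], both under 2-fold. All 4 neighbouring pairs in its order (OP449, siCIP2A, siSET, siNT, PBS) had intervals that left out equality, which at this depth shows only that counting error is small.

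**Figure D1:**
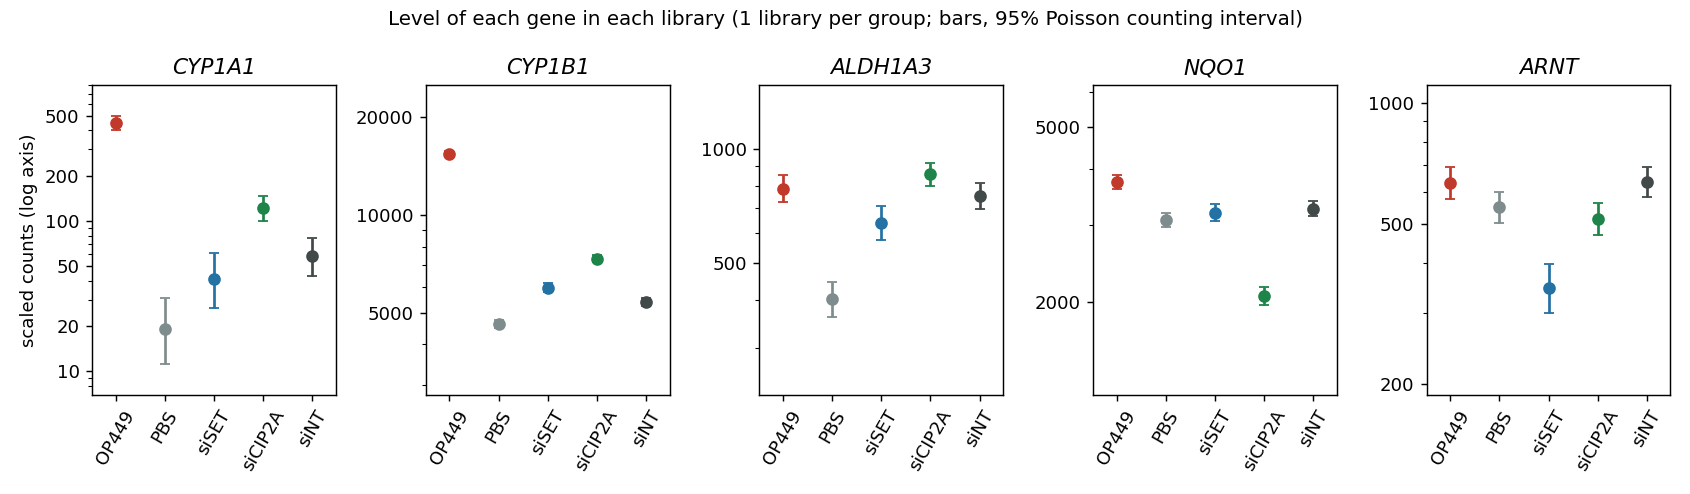
Scaled counts of the 5 genes in each library on log axes (1 panel per gene, 1 point per library, bars for the 95% Poisson counting interval). CYP1A1 and CYP1B1 are highest in OP449 at 451 and 15459.5, ALDH1A3 is lowest in PBS at 402, NQO1 is lowest in siCIP2A at 2069, and ARNT is lowest in siSET at 347.

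ALDH1A3 followed another pattern, in which PBS was lowest, siSET lay between, and siNT, OP449 and siCIP2A were highest. It stood at 786 scaled counts in OP449 against 402 in PBS, and at 640 in siSET and 857 in siCIP2A against 750 in siNT. OP449 was 1.95-fold above PBS [1.71 to 2.23], a log2 fold of 0.96 just short of the threshold, with an interval that spans it. siNT was 1.86-fold above PBS [1.63 to 2.13], at 0.90, and both comparisons share the PBS library. Against siNT, OP449 stood at a log2 ratio of 0.067 [-0.10 to 0.23], so the difference seen against PBS was not detectable against the other control. siCIP2A against siNT was at 0.19 [0.04 to 0.35] and siSET at -0.23 [-0.42 to -0.04]. The intervals of siCIP2A over OP449 and of OP449 over siNT held equality. Those of siCIP2A over siSET, at a log2 ratio of 0.42 [0.24 to 0.60], and of siSET over PBS, at 0.67 [0.46 to 0.88], did not.

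NQO1 was abundant and varied little except in siCIP2A. It stood at 3746 scaled counts in OP449 against 3073 in PBS, and at 3192 in siSET and 2069 in siCIP2A against 3260 in siNT. siCIP2A was the lowest library, below siNT at a log2 fold of -0.66 [-0.74 to -0.57], and below PBS at -0.57. This difference was under 2-fold, and 4.51% of the 6099 genes past the floor had a larger one in either direction. OP449 stood at 0.29 [0.21 to 0.36] against PBS and siSET at -0.03 [-0.12 to 0.05] against siNT. For this quinone reductase 3 transcript rows were listed, and their counts overlap. The other rows held at least 94.3% and at least 90.7% of the value of the row used, in every library, and their log2 folds in siCIP2A were -0.66 and -0.67.

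ARNT, the dimer partner, was lowest in siSET. It stood at 633 scaled counts in OP449 against 550 in PBS, and at 347 in siSET and 515 in siCIP2A against 636 in siNT, with 203 reads in siSET, the shallowest library. siSET was at a log2 fold of -0.87 [-1.11 to -0.64] against siNT and at -0.66 [-0.91 to -0.42] as a log2 ratio to PBS, so it was the lower library against both controls. In this comparison 1.99% of the 6081 genes past the floor had a larger fold in either direction, though the gene was not counted as 2-fold lower. siCIP2A stood at -0.31 [-0.49 to -0.12] against siNT and OP449 at 0.20 [0.02 to 0.39] against PBS. A second ARNT row held the same reads in 3 of the 5 libraries and another row held 63.5% to 66.8% of them, with log2 folds of -0.87 and -0.92 in siSET.

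**Figure D2:**
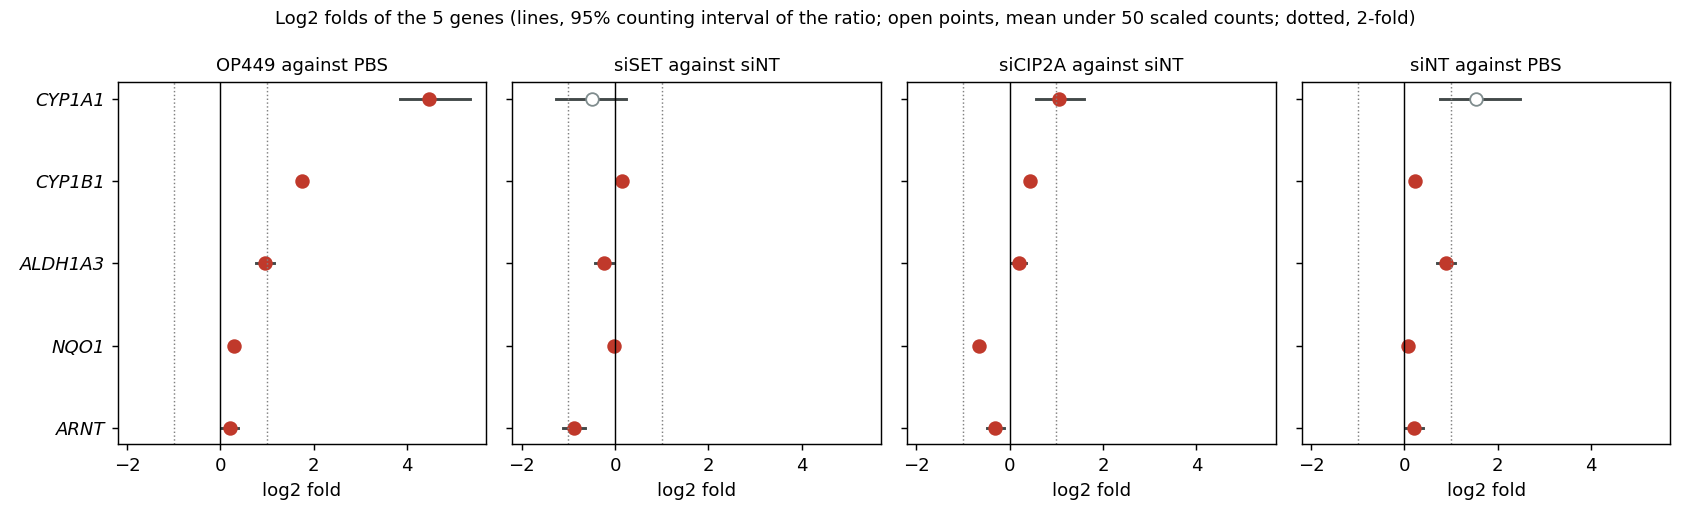
Log2 folds of the 5 genes in the 4 comparisons, with lines for the 95% counting interval of the ratio, open points for pairs with a mean under 50 scaled counts and dotted lines at 2-fold. CYP1A1 at 4.48 and CYP1B1 at 1.74 lie beyond 2-fold in OP449 against PBS, CYP1A1 lies at 1.05 in siCIP2A against siNT, and ARNT in siSET lies at -0.87.

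Set against all genes, 2 of the 5 members, CYP1A1 and CYP1B1, were at least 2-fold higher in OP449 than in PBS, where 0.295% of 6093 genes were. The list was chosen with this contrast in view, so nothing is read from that share. None of the 5 was at least 2-fold lower there, against 0.295% of all genes. In siCIP2A against siNT, 1 of the 5, CYP1A1, was at least 2-fold higher, against 0.475% of 6099 genes, and none was lower, against 0.639%. In siSET against siNT none of the 4 members past the floor was at least 2-fold higher or lower, against 0.395% and 0.789% of 6081 genes. Between the controls, siNT against PBS, none of 4 was at least 2-fold higher or lower, against 0.247% and 0.148% of 6073 genes. All 5 members stood above PBS in OP449, and all 5 also stood above PBS in siNT, where CYP1A1 lay under the floor. These 2 comparisons share the PBS library. Of all genes past the floor, 53.7% stood above PBS in OP449 and 49.0% in siNT. The median log2 fold of all genes past the floor was 0.02 in OP449, 0.01 in siSET, 0.02 in siCIP2A and -0.0042 in siNT against PBS.

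**Figure D3:**
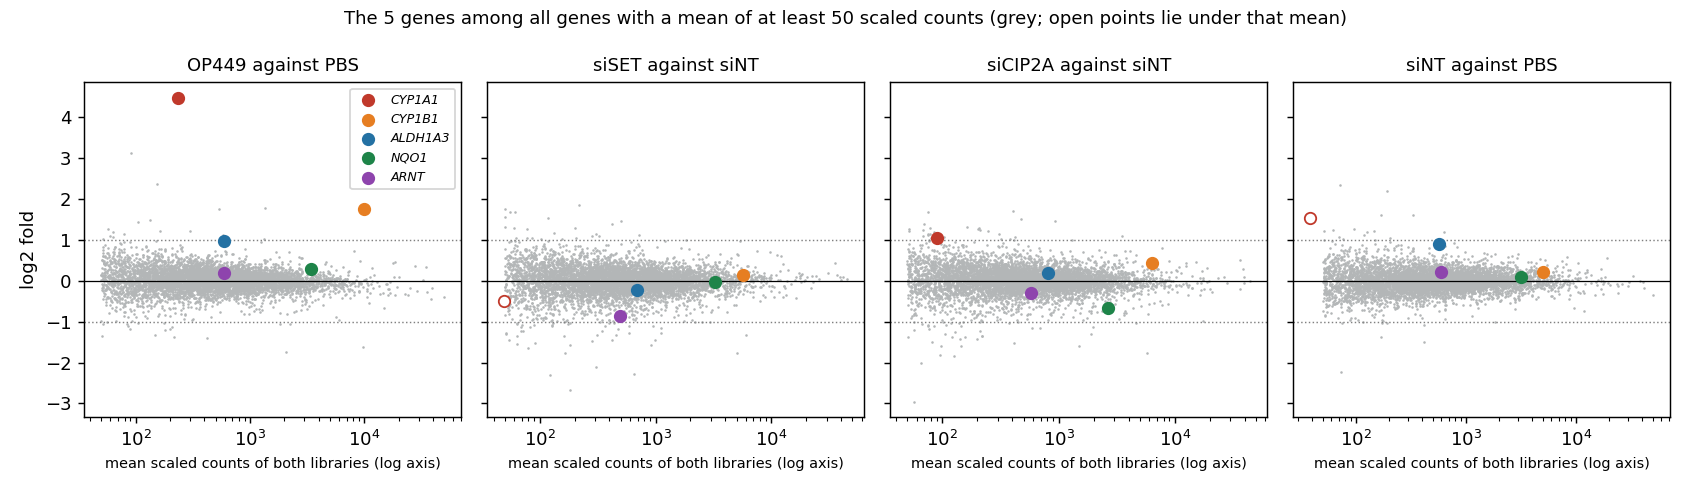
Log2 fold against the mean of both libraries (log axis) for every gene with a mean of at least 50 scaled counts in grey, with the 5 genes in colour and open where their mean is lower. CYP1A1 at 4.48 is the highest point in OP449 against PBS, and CYP1B1 combines a fold of 1.74 with a mean of 10038 scaled counts.

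Other genes of the receptor's machinery were looked at beside ARNT. Of 24 listed genes of the complex, its dimer partners and its coactivators, 14 besides ARNT were in the table and 11 passed the floor, of which none was at least 2-fold higher or lower in any of the 3 treated comparisons, where at most 0.789% of all genes were in either direction. Their median log2 fold was 0.04 in OP449, -0.06 in siSET and 0.02 in siCIP2A. The co-chaperone gene PTGES3 and HSP90AA1, which encodes the chaperone HSP90, both stood at -0.03 in OP449 against PBS. ARNT2, the close relative of ARNT, had 906 scaled counts in OP449 against 1016 in PBS, and 937 in siSET and 915 in siCIP2A against 1027 in siNT, so it did not share the low value of ARNT in siSET. HIF1A, a hypoxia-inducible partner of ARNT, was higher in siSET at 6194 against 4018 in siNT, a log2 fold of 0.62 [0.56 to 0.69]. EPAS1, which encodes HIF-2 alpha, was higher at 968 against 711, a log2 fold of 0.44. This was not particular to siSET. HIF1A also stood at 0.22 in OP449 against PBS and at 0.22 in siCIP2A against siNT, and EPAS1 at 0.38 and 0.31. For both genes siNT was the lowest library.

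Other genes known to be induced by the receptor were listed as well. Of the 26 listed, 12 besides the members were in the table and 6 passed the floor in OP449 against PBS, with 3 above PBS, 3 below it and none at 2-fold, where 0.295% of all genes were higher and 0.295% lower. KYNU, an enzyme of tryptophan breakdown, had the highest fold among them, at 401 scaled counts in OP449 against 257 in PBS, a log2 fold of 0.64 [0.39 to 0.89]. FLG, which encodes the skin barrier protein filaggrin, had the lowest, at -0.42. CYP1A2, the neighbour and close relative of CYP1A1, had no read in OP449, PBS or siSET, which allows up to 3.86, 3.40 and 5.13 scaled counts there, and 1 read each in siCIP2A and siNT. ALDH3A1, another classical target, had 10 reads each in OP449 and PBS. CYP2S1, a P450 gene induced in other cells, stood at -0.01 with 117 scaled counts in OP449 and 118 in PBS.

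Others lay below the floor. SERPINB2, the gene of plasminogen activator inhibitor type 2, had 41 reads in OP449 against 9 in PBS, at 52.8 and 10.2 scaled counts and a log2 fold of 2.26 [1.31 to 3.60]. PTGS2, which encodes the prostaglandin-making enzyme COX-2, had 12 reads in OP449 against 3 in PBS, and 10 in siNT. SERPINB2 was thus higher in OP449 than in PBS beyond counting error, from few reads. For SERPINB2, siNT also stood above PBS, at a log2 fold of 1.21 [0.10 to 2.60]. The gene had 3 reads in siSET and 29 in siCIP2A, against 21 in siNT, with a log2 fold of -2.08 [-4.67 to -0.53] in siSET. In siSET the gene of interleukin-1 beta, IL1B, was the one listed gene past both the floor and 2-fold, at 82.1 scaled counts against 175 in siNT and a log2 fold of -1.09 [-1.60 to -0.62]. IL1B also stood at 1.20 in siNT against PBS, and its level of 75.9 in PBS was close to that of siSET. In siCIP2A, 7 of the listed genes passed the floor, with a median of -0.24, which was -0.11 at a floor of 20 and -0.057 with PBS as control. SLC7A5 was the lowest of them, an amino acid transporter gene at 4066 scaled counts against 6212 in siNT and a log2 fold of -0.61 [-0.67 to -0.55].

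Relatives of the members by gene family came next. Of 34 other cytochrome P450 genes in the table, 15 had a read in any library and 3 passed the floor in OP449 against PBS. CYP26B1, which degrades retinoic acid, was the highest of the 3 at 67.0 scaled counts in OP449 against 37.4 in PBS, a log2 fold of 0.82 [0.18 to 1.52]. In siCIP2A the vitamin D hydroxylase gene CYP2R1 stood at 148 against 80.6 in siNT, a log2 fold of 0.87 [0.45 to 1.32]. For this gene siNT was the lowest library, with 109 in PBS, 108 in siSET and 140 in OP449. Of 12 other aldehyde dehydrogenase genes, 8 passed the floor, and 7 of these stood below PBS in OP449. There ALDH1A3 and 53.7% of all genes past the floor stood above PBS. In siNT, 4 of the 8 stood below the same PBS library. ALDH3B1, which oxidises lipid-derived aldehydes, was the lowest of the 8 in OP449 at -0.52. It was nevertheless higher in both knockdowns, at 872 in siSET and 854 in siCIP2A against 491 in siNT. In PBS it stood at 625, and siNT lay below PBS at a log2 fold of -0.35 [-0.54 to -0.16].

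Genes that use retinoic acid were looked at beside ALDH1A3. Of 15 other genes of retinoid metabolism in the table, 9 had a read and 6 passed the floor in OP449 against PBS. DHRS3, which reduces retinal and so works against ALDH1A3, was the lowest at 112 scaled counts in OP449 against 204 in PBS, a log2 fold of -0.86 [-1.25 to -0.49]. The receptor genes RARG, at 384 against 272, and RARA, at 352 against 283, were higher in OP449 than in PBS by 0.50 and 0.31 on the log2 scale. In siNT RARA stood at 411, above OP449, so its direction turned with the control. CYP26A1 had no read in any library, and CRABP2, which carries retinoic acid, stood at 52.8 in OP449 and 58.9 in PBS.

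NQO1 was compared with other genes of the NRF2 pathway. Besides NQO1, 13 of 24 listed genes were in the table, without NFE2L2, the gene of NRF2, and 11 passed the floor. In OP449, 9 of the 11 stood above PBS, with a median of 0.35, where 53.7% of all genes past the floor did. GCLM, which encodes the modifier subunit of glutamate-cysteine ligase, was the only one past 2-fold, at 1777 scaled counts in OP449 against 868 in PBS. The thioredoxin reductase gene TXNRD1 stood at 31519 against 24417, a log2 fold of 0.37 [0.34 to 0.39], close to the 0.29 of NQO1. In siCIP2A the list had 7 of 11 genes below siNT and a median of -0.10, where 52.7% of all genes past the floor stood above siNT. AKR1C3, an aldo-keto reductase gene with near-identical relatives, was lowest at -0.55 and the ferritin gene FTL highest at 0.50. NQO1 at -0.66 lay below all 11 listed genes in that comparison.

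**Figure D4:**
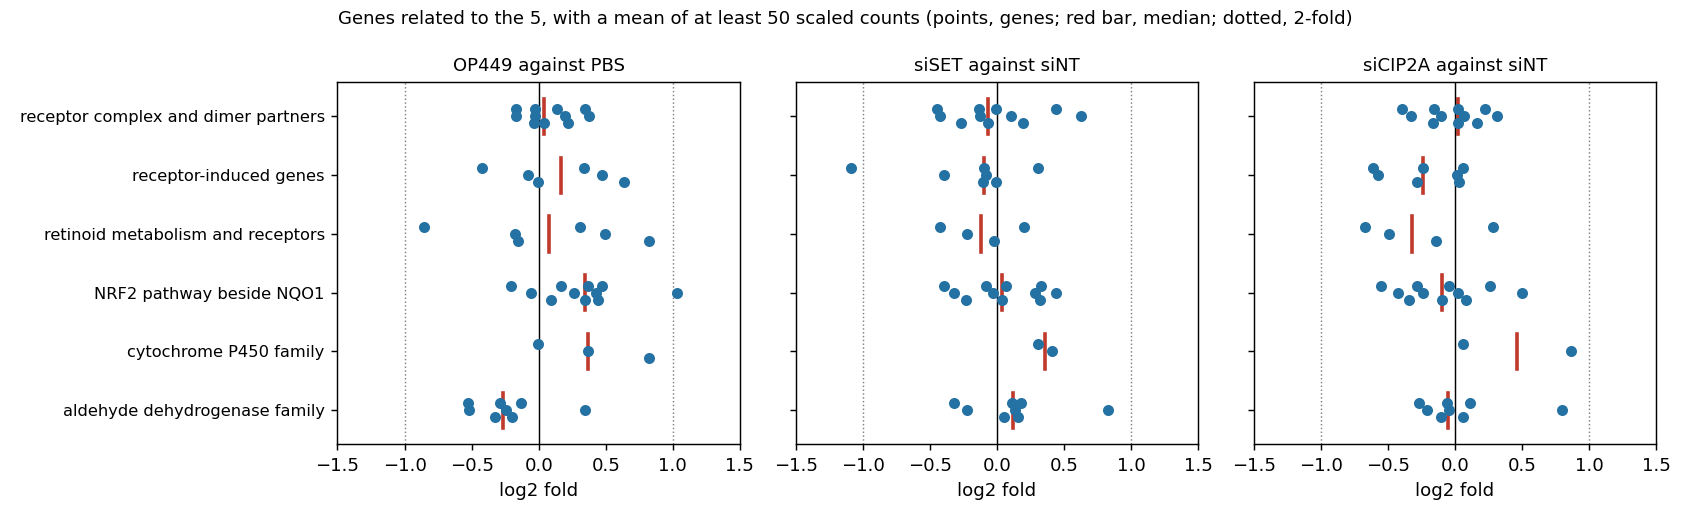
Log2 folds of genes related to the 5 members, which are left out, by list in 3 comparisons (points for genes with a mean of at least 50 scaled counts, red bars for medians, dotted lines at 2-fold). GCLM at 1.03 in OP449 against PBS and IL1B at -1.09 in siSET against siNT are the points beyond 2-fold.

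The chromosomal neighbours were examined to see whether the differences extended past the members. On hg19 the CYP1A1 transcript spans chromosome 15 from 75011884 to 75017877 on the minus strand. The gene before it in the table, EDC3, an mRNA decapping factor, stood at 594 scaled counts in OP449 against 588 in PBS, and CYP1A2 lies 23306 bases beyond it on the other side. The CYP1B1 transcript spans chromosome 2 from 38294746 to 38303323 on the minus strand. ATL2, which shapes the endoplasmic reticulum, lies 218707 bases after it and stood at 0.18 [0.04 to 0.33] in OP449. The nearer gene on its other side, 49861 bases away, lay under the floor there. The ALDH1A3 transcript spans chromosome 15 from 101420009 to 101456828 on the plus strand. LRRK1, a kinase gene that starts 2631 bases after its end, stood at 551 in OP449 against 538 in PBS and so did not share its low PBS level. The NQO1 transcript spans chromosome 16 from 69743305 to 69760533 on the minus strand. NFAT5, an osmotic stress factor whose gene ends 4751 bases before it, stood at 0.17 in siCIP2A, where NQO1 was lower. In OP449 against PBS, NFAT5 stood at 0.30 [0.17 to 0.43], close to NQO1 at 0.29. The ARNT transcript spans chromosome 1 from 150782186 to 150849186 on the minus strand, with CTSK, the gene of the protease cathepsin K, 1373 bases before it and SETDB1, a histone methyltransferase gene, 49628 bases after it. CTSK, under the floor, stood at 23.9 in siSET against 40.3 in siNT, a log2 fold of -0.73 [-1.76 to 0.19], and SETDB1 stood at 438 in siSET against 425 in siNT.

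The genes whose pattern over the 5 libraries was most like that of each member were sought among 6090 genes with a mean of at least 50 scaled counts. Likeness was the root mean square difference of log2 values after each gene was centred on its own mean. ANGPTL4, a secreted lipase inhibitor, was nearest to CYP1A1, at a distance of 0.54, with 165 scaled counts in OP449 against 18.1 in PBS, and 18.8 in siSET and 104 in siCIP2A against 47.4 in siNT. Both genes had the same order of libraries, though siSET and PBS lay close together for ANGPTL4, from few reads. SHISA2 at 0.94 and CYP1B1 at 0.95 came next, against a standard deviation of 1.52 for the pattern of CYP1A1 itself. For CYP1B1 the nearest were GCLM at 0.28, the tight junction gene CGN at 0.29 and CPT1A, the gate of fatty acid oxidation, also at 0.29.

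ALDH1A3 was nearest to FIGN at 0.12, ETV3 at 0.14 and NFKBID, which encodes an inhibitor of NF-kB, at 0.16. FIGN had 157 scaled counts in OP449 against 95.2 in PBS, and 139 in siSET and 158 in siCIP2A against 153 in siNT, which again sets PBS apart. NQO1 was nearest to SLC7A5, at 0.041, with MIB1 following at 0.055 and TMCC2 at 0.056. SLC7A5 was highest in OP449 at 7244 and lowest in siCIP2A, as NQO1 was. ARNT was nearest to EMC8 at 0.027, NFIC at 0.042 and DRAP1 at 0.050, and NFIC had 880 scaled counts in OP449 against 792 in PBS, and 511 in siSET and 756 in siCIP2A against 872 in siNT. The distances rest on 5 libraries, and a flat gene reaches a small distance more easily than one as variable as CYP1A1.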

How the data were processed

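RNA reverse transcribed with oligo-dT primers was read on an Illumina GAII, per the labels' protocols. The submitters' processing notes name hg19, CASAVA and Bowtie 1.0.0, without the step each served. How reads were counted, stranded or not, and scaled is not stated by these sources. The authors deposited a signal per transcript, in scaled counts. Dividing by the worth of 1 read gave whole reads for 100% of values, within 0.001 reads. Of the 16383 rows, 15739 were joined to current gene symbols by RefSeq accession, and the others by symbol. Log2 folds, exact Poisson and Clopper-Pearson intervals and counts past 2-fold were computed in Python 3.11.15 with scipy 1.17.1. The computation was also run on simulated Poisson counts. These hold no spread between cultures, so that run checks the computation only. A count test was not run, since 1 library per group leaves no spread between samples. Transcript lengths came from GENCODE transcripts. Alternatives were floors of 20, 200 or none, a pseudocount of 10, 3 rescalings, the other control library and the other transcript rows.

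The members and lists were chosen with earlier results of these data known. Named genes were the members, list genes past 2-fold or with the highest or lowest fold, genes of fixed roles, the nearest neighbour on each side and the 3 genes most alike in pattern. RARG, IL1B in PBS, SERPINB2, PTGS2, ALDH3B1 in the knockdowns and CDH1 were named after their values were seen. A gene that this rule names is not reported here.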

Additional observations from a re-analysis of the deposited data

How the results depend on the processing

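No paired analysis was possible because each group has 1 library. Under a pseudocount of 10, and after rescaling to equal upper quartiles, to equal totals or by median ratios, all 20 log2 folds of the 5 genes stayed within their counting intervals, as did the 8 from other transcript rows of NQO1 and ARNT. The control library moved them more. With siNT as control of OP449, CYP1A1 was at 2.94, CYP1B1 at 1.52, ALDH1A3 at 0.067, NQO1 at 0.20 and ARNT at -0.0088. With PBS as control, siSET stood at 1.05 for CYP1A1, 0.37 for CYP1B1 and 0.67 for ALDH1A3, and siCIP2A at 2.59 for CYP1A1, 0.67 for CYP1B1, 1.09 for ALDH1A3, -0.57 for NQO1 and -0.10 for ARNT. The signs of CYP1A1, ALDH1A3 and NQO1 in siSET and of ARNT in OP449 turned with the control, all uncalled values, and ALDH1A3 in siCIP2A passed 2-fold only against PBS. The cause was not tested.

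The counts of genes past 2-fold followed the floor, as fewer or more low genes are tested. For OP449 against PBS they were 18 higher and 18 lower, with 36 and 35 at a floor of 20, 7 and 7 at 200, and 373 and 406 without one. For siSET against siNT they were 24 and 48, with 47 higher at a floor of 20, 10 and 22 at 200, 410 and 540 without one, and 23 lower against PBS. For siCIP2A against siNT they were 29 and 39, with 52 and 59 at 20, 13 and 14 at 200, and 445 and 432 without one. For siNT against PBS they were 15 and 9, with 28 and 23 at 20, 3 and 3 at 200, 430 and 380 without one, and 4 lower under a pseudocount of 10. Depth limits CYP1A1 most, from 17 reads in PBS.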
